A study of Mus musculus with 21 samples.

Results

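The IFITM genes encode small membrane proteins that are switched on by interferon, and 4 of them (Ifitm1, Ifitm2, Ifitm3 and Ifitm6) were followed here in inflammatory monocytes (IMs) sorted from mice with and without lung squamous carcinoma (LUSC). The members were taken by gene symbol, and all 4 were found among the 23420 symbols of the count table. RNA was measured in 21 libraries that fell into 5 groups. Bone marrow IMs (BM IMs) without tumor came from healthy FVB mice (n = 3) and healthy DBA2 mice (n = 3). Tumor IMs (TIMs) came from FVB mice that carried KAL-LN2-E1 (LN2E1) cells, with 500000 cells placed into the lung of each mouse, and were sorted from the primary lung tumor (n = 5) and from lymph node metastases (n = 5). Another set of TIMs came from lungs of DBA2 mice that had received 300000 LN4K1 cells per mouse into a vein (n = 5). LN2E1 and LN4K1 are each a mouse LUSC line selected for spread from its own parental line, so that strain, cell line, route and tissue changed together between the models. The study's methods describe adult animals of both sexes, and the animal behind each library is not given in the sources used here. The labels name no transgene or deletion in any host. Nothing in the labels says whether replicates came from separate animals, and the study's methods call them technical replicates. The p-values therefore measure only the spread between these samples, which may be technical.

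IFITM proteins sit in the plasma membrane and in endosomes, where they stiffen the membrane and keep enveloped viruses from fusing with it. IFITM1 lies mostly at the cell surface, IFITM3 mostly in late endosomes and lysosomes, and IFITM2 resembles IFITM3 in its endosomal place. Ifitm6 is a rodent member of the family, and it is known for its expression in monocytes and macrophages. Type I interferons act through the receptor IFNAR and switch on genes mainly through the interferon-stimulated response element (ISRE), whereas interferon-gamma acts through IFNGR and mainly through the gamma-activated sequence (GAS).

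All 4 genes lie side by side on mouse chromosome 7 (GRCm38, GENCODE vM21). Ifitm2 (ENSMUSG00000060591.9) spans chr7:140954837-140955987 on the minus strand, Ifitm1 (ENSMUSG00000025491.14) chr7:140967221-140969825 on the plus strand, Ifitm3 (ENSMUSG00000025492.6) chr7:141009586-141010770 on the minus strand and Ifitm6 (ENSMUSG00000059108.4) chr7:141015699-141017924 on the minus strand. All 4 are annotated as protein coding. Ifitm2 and Ifitm3 have 1 annotated transcript each, and Ifitm1 and Ifitm6 have 3 each. Their joined exons cover 655 bases in Ifitm2, 1094 in Ifitm1, 678 in Ifitm3 and 905 in Ifitm6.

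The promoter sequences are shown because the 4 neighbours, which share a family and a locus, changed by very different amounts in TIMs. Each run holds 170 bases before and 30 bases after the RefSeq start (GRCm38.p6), read 5′ to 3′ on the gene's own strand. Capitals mark matches to the ISRE core GAAANNGAA or to the GAS letters TTCNNNGAA.
Ifitm1, chr7:140967906-140968105, plus strand: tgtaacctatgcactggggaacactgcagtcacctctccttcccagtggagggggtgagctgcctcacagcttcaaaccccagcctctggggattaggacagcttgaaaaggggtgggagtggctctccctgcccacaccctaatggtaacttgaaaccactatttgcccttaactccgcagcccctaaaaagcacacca
Ifitm2, chr7:140955932-140956131, minus strand: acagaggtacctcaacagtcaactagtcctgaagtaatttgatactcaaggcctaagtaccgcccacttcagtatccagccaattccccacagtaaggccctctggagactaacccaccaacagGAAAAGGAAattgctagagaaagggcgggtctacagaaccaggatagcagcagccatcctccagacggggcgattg
Ifitm3, chr7:141010715-141010914, minus strand: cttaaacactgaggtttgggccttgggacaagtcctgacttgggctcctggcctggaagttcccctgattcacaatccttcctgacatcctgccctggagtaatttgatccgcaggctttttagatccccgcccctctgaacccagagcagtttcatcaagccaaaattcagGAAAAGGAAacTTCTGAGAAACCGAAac
Ifitm6, chr7:141016863-141017062, minus strand: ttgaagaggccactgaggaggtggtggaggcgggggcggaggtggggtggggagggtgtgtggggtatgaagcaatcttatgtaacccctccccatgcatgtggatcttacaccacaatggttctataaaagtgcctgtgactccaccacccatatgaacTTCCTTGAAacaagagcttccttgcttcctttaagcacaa
The ISRE core was searched on both strands, the GAS letters read the same on both, and the PU.1 letters GAGGAAGT, a myeloid factor's site, were also searched on both strands. In windows from 250 bases before to 50 bases after the start of 32851 mouse promoters, 8.56% held the ISRE core, 8.3% the GAS letters and 3.2% the PU.1 letters. Ifitm2 held the ISRE core GAAAAGGAA at positions -46 to -38 from its start. Ifitm3 held the same letters at positions 3 to 11 and GAAACCGAA at positions 20 to 28, with the GAS letters TTCTGAGAA at positions 14 to 22 overlapping the latter. Ifitm6 held only the GAS letters, TTCCTTGAA at positions -10 to -2. No match to any of the 3 motifs was present in the Ifitm1 window, although Ifitm1 was the member that changed most, and no window of the 4 held the PU.1 letters. The matches are positions of letters and no measure of binding. GENCODE places the starts of Ifitm2 and Ifitm3 upstream of the RefSeq starts, so that positions depend on the annotation, and the further annotated transcripts of Ifitm1 and Ifitm6 were not searched.

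Libraries held between 80772922 and 101043568 counts, and a count of 0 would allow up to 3 counts, or 0.0297 to 0.0371 CPM, a limit for counting error only. CPM here is a count scaled to a fixed library total after edgeR's TMM adjustment of the 21 totals. Of 8 classical monocyte markers, among them Ly6c2, Ccr2, Csf1r and Itgam, all 8 were present in every group, with summed levels of 41904 to 128018 CPM. The highest sum was in LN4K1 lung TIM replicate 3, against 70785 to 85916 in the other LN4K1 libraries. Lyz2 alone had group means of 34248 to 75541 CPM. Against marrow, Ly6c2 had log2 fold changes of -1.30, -1.17 and -0.88 in primary tumor, lymph node and LN4K1 lung TIMs. In the same order 5, 4 and 5 of the 8 markers rose and 2, 2 and 1 fell (adjusted p under 0.05 in edgeR). Of all genes tested, 33.3%, 20.2% and 13.9% rose and 28.6%, 17.2% and 11% fell. Markers of neutrophils and their precursors summed to 3191 to 5348 CPM in BM IMs and 374 to 1010 CPM in TIMs. Fibroblast markers lay between 367 and 1110 CPM in primary tumor TIMs, between 0.836 and 86.8 in lymph node TIMs, between 1.30 and 42.7 in LN4K1 lung TIMs and at most 0.363 in BM IMs. Eosinophil markers, with a sum of 417 to 1082 CPM in BM IMs, were at most 66.5 CPM in TIMs. Patrolling monocyte markers summed to 157 to 295 CPM in BM IMs and 467 to 2974 CPM in TIMs, and macrophage markers to 803 to 2095 CPM in BM IMs and 2750 to 6157 CPM in TIMs. Epithelial markers were at most 2.07 CPM in BM IMs and lay between 2.86 and 692 CPM in TIMs, and endothelial and lymphocyte markers were at most 30.5 CPM in any library. Basophil and mast cell markers summed to 464 CPM in lymph node TIM replicate 1 and to at most 22.6 CPM in the other lymph node libraries. In bulk RNA, a smaller share of a cell type and less RNA per cell cannot be told apart.

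Across the 5 groups the 4 members did not share 1 pattern. Ifitm1 was low in marrow of both strains and rose in all 3 TIM groups, far more in the LN2E1 model than in the LN4K1 model. Ifitm2 rose in every TIM group to levels that overlapped, Ifitm3 was already among the most abundant transcripts in marrow and rose by less than 1 unit of log2, and Ifitm6 did not pass the test in any TIM group. With a Benjamini-Hochberg adjusted p under 0.05 by edgeR's quasi-likelihood test, 3 of the 4 members were higher in primary tumor TIMs than in FVB BM IMs, where 33.3% of the 14569 genes tested were higher and 28.6% lower. The same 3 members were higher in lymph node TIMs, where 20.2% of 13273 genes were higher and 17.2% lower, and in LN4K1 lung TIMs against DBA2 BM IMs, where 13.9% of 13624 genes were higher and 11% lower. At the study's thresholds for a differentially expressed gene (DEG), an adjusted p under 0.0001 and a log2 fold change above 1, Ifitm1 and Ifitm2 passed in each of the 3 comparisons, against 7.72%, 4.01% and 1.21% of all genes tested. The primary tumor and lymph node comparisons share their 3 FVB BM IM libraries and are therefore not independent of each other.

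**Figure D1:**
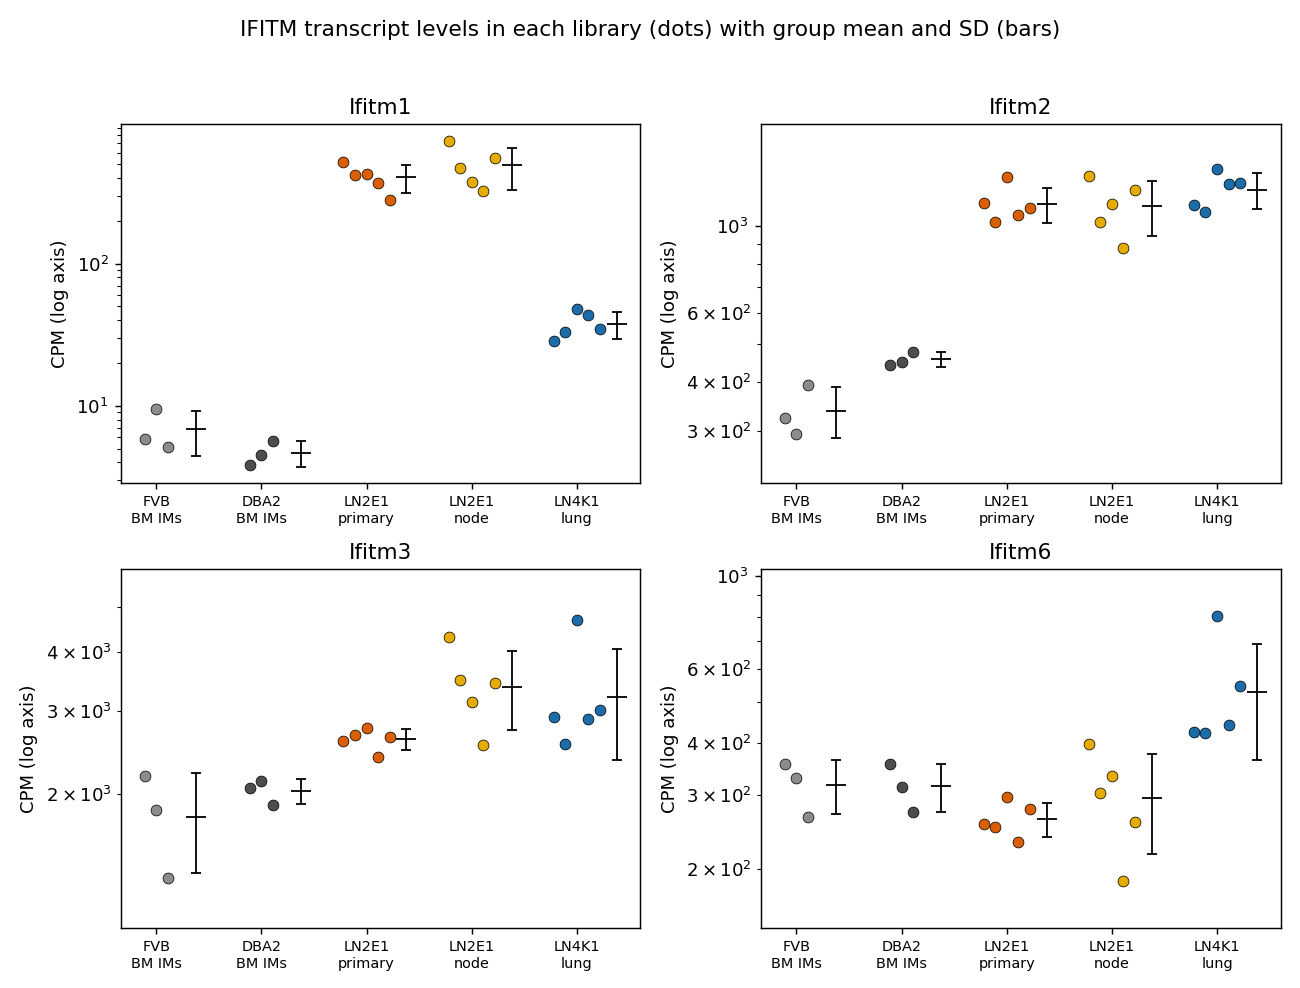
Level of each IFITM gene in CPM on a log axis, with a dot for each library and a bar for the group mean and SD beside it (n = 3 for BM IMs, n = 5 for TIMs). Ifitm1 separates into marrow (3.83 to 9.54 CPM), LN4K1 lung (28.6 to 48.2) and LN2E1 (279 to 732) libraries, and LN4K1 lung replicate 3 is the highest dot for Ifitm3 and Ifitm6.

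Ifitm1, the member whose protein lies mainly at the cell surface, gave the largest change of the family. It measured 5.84, 9.54 and 5.11 CPM in the 3 FVB BM IM libraries and 3.83, 4.53 and 5.70 CPM in the 3 DBA2 BM IM libraries. In primary tumor TIMs it measured 521, 421, 430, 369 and 279 CPM, and in lymph node TIMs 732, 473, 378, 324 and 557 CPM. All 10 LN2E1 libraries therefore lay above all marrow libraries with a wide gap, and their group ranges overlapped each other. In LN4K1 lung TIMs Ifitm1 measured 28.6, 32.8, 48.2, 43.8 and 34.7 CPM, above every marrow library and below every LN2E1 library.

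The log2 fold change of Ifitm1 was 5.87 (SE 0.31, adjusted p = 6.15e-07) in primary tumor TIMs, a 58.6-fold rise. In lymph node TIMs it was 6.18 (SE 0.39, adjusted p = 2.31e-06), a 72.7-fold rise, and in LN4K1 lung TIMs it was 2.94 (SE 0.24, adjusted p = 2.45e-05), a 7.68-fold rise, all by edgeR's quasi-likelihood test. By mean CPM, Ifitm1 ranked 8494th of 23420 genes in FVB BM IMs and 9114th in DBA2 BM IMs, and it ranked 408th in primary tumor TIMs, 343rd in lymph node TIMs and 4453rd in LN4K1 lung TIMs. The rise stood beside higher fibroblast and epithelial marker sums in primary tumor TIMs, whose part in the rise was not tested. Lymph node TIM replicate 1, the library with the basophil and mast cell marker sum of 464 CPM, had the highest Ifitm1 level of all libraries, and the lymph node call held without it (adjusted p = 1.11e-06 by edgeR). About 5.02% of the 50-base stretches of Ifitm1 transcripts also occur in transcripts of other genes.

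Ifitm2, an endosomal member, rose in every TIM group, and the TIM groups overlapped in level. It measured 325, 296 and 393 CPM in FVB BM IMs and 442, 450 and 479 CPM in DBA2 BM IMs. Primary tumor TIMs held 1145, 1021, 1326, 1063 and 1107 CPM, lymph node TIMs 1336, 1019, 1138, 876 and 1229 CPM and LN4K1 lung TIMs 1128, 1082, 1393, 1278 and 1281 CPM. Every TIM library lay above every BM IM library, and the 3 TIM groups overlapped one another. The log2 fold change was 1.73 (SE 0.13, adjusted p = 4.71e-06) in primary tumor TIMs, 1.74 (SE 0.17, adjusted p = 4.09e-05) in lymph node TIMs and 1.37 (SE 0.12, adjusted p = 3.28e-05) in LN4K1 lung TIMs, in edgeR. The DEG calls in the lymph node and LN4K1 lung comparisons depended on single libraries. In lymph node TIMs only Ifitm1 remained a DEG in the fits that left out any 1 FVB BM IM replicate or lymph node TIM replicate 2, 3 or 5. In LN4K1 lung TIMs neither gene was a DEG without DBA2 BM IM replicate 1, 2 or 3 or LN4K1 lung TIM replicate 4 or 5, and 1 was without LN4K1 lung TIM replicate 1, while both stayed past an adjusted p of 0.05. Without LN4K1 lung replicate 3 the log2 fold changes were 2.84 for Ifitm1 and 1.33 for Ifitm2, and both were DEGs.

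Reads of Ifitm2 may be less certain than those of the other members, because more of its sequence occurs in transcripts of other genes. Of its 606 distinct 50-base stretches, 294 (48.5%) also occur in transcripts of other genes, 219 of them in the readthrough gene Gm45717. Exons of Gm45717 overlap Ifitm2 by 268 bases on the same strand, and that gene was not matched in the count table. The overlapping bases are the same place in the genome, so they do not by themselves give a read another place to align. Of the same 294 stretches, 90 occur in Gm11951 and 20 in Ifitm3. These counts overlap, because a stretch can occur in several other genes. How such reads were assigned is not given in the sources used here.

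Ifitm3, the best known antiviral member, was abundant before any tumor was present. It measured 2180, 1854 and 1330 CPM in FVB BM IMs and 2060, 2134 and 1896 CPM in DBA2 BM IMs, and it ranked between 21st and 33rd of all genes in every group. Primary tumor TIMs held 2592, 2670, 2760, 2403 and 2643 CPM, lymph node TIMs 4316, 3486, 3134, 2540 and 3439 CPM and LN4K1 lung TIMs 2915, 2549, 4690, 2883 and 3017 CPM. TIM libraries lay above the marrow libraries of their own strain in all 3 comparisons. The gap was narrow, with 2180 CPM in the highest FVB marrow library and 2403 CPM in the lowest primary tumor library.

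The log2 fold change of Ifitm3 was 0.54 (SE 0.14, adjusted p = 0.00755) in primary tumor TIMs and 0.93 (SE 0.20, adjusted p = 0.00499) in lymph node TIMs by edgeR. In LN4K1 lung TIMs it was 0.60 (SE 0.19) with an adjusted p of 0.0474, the largest adjusted p among the members' rises. This last call held in 7 of 16 alternative analyses, with adjusted p between 0.00318 and 0.195, and it was lost on leaving out any DBA2 BM IM replicate or LN4K1 lung replicate 1, 4 or 5. Without LN4K1 lung replicate 3, the highest library, the value was 0.43 with an adjusted p of 0.00318. Scaling by library totals in place of TMM factors, chosen after seeing the data, moved the median of all genes in this comparison from 0.03 to -0.19 and gave Ifitm3 a value of 0.37 with an adjusted p of 0.142.

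Ifitm6, the monocyte member, had no passing change in any TIM group. It measured 356, 330 and 267 CPM in FVB BM IMs and 356, 315 and 274 CPM in DBA2 BM IMs. Primary tumor TIMs held 256, 253, 297, 232 and 279 CPM and lymph node TIMs 398, 304, 334, 187 and 260 CPM, and both overlapped the FVB marrow libraries. LN4K1 lung TIMs held 424, 422, 803, 441 and 548 CPM, all above the DBA2 marrow libraries.

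The log2 fold change of Ifitm6 was -0.28 (SE 0.11, adjusted p = 0.0503) in primary tumor TIMs, -0.09 (SE 0.22, adjusted p = 0.794) in lymph node TIMs and 0.68 (SE 0.22, adjusted p = 0.0525) in LN4K1 lung TIMs by edgeR. The values in primary tumor and LN4K1 lung TIMs lay close to the threshold. The LN4K1 value passed in 7 of 16 alternatives, with adjusted p between 0.0109 and 0.228. Without LN4K1 lung replicate 3 it was 0.48 with an adjusted p of 0.0109. The primary tumor value passed in 3 of 16 alternatives, with adjusted p between 0.00181 and 0.312, among them the fits without FVB BM IM replicate 3 (-0.39, adjusted p = 0.00904) and without primary tumor TIM replicate 3 (-0.33, adjusted p = 0.0258). None of the 50-base stretches of Ifitm6 occurs in transcripts of another gene.

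**Figure D2:**
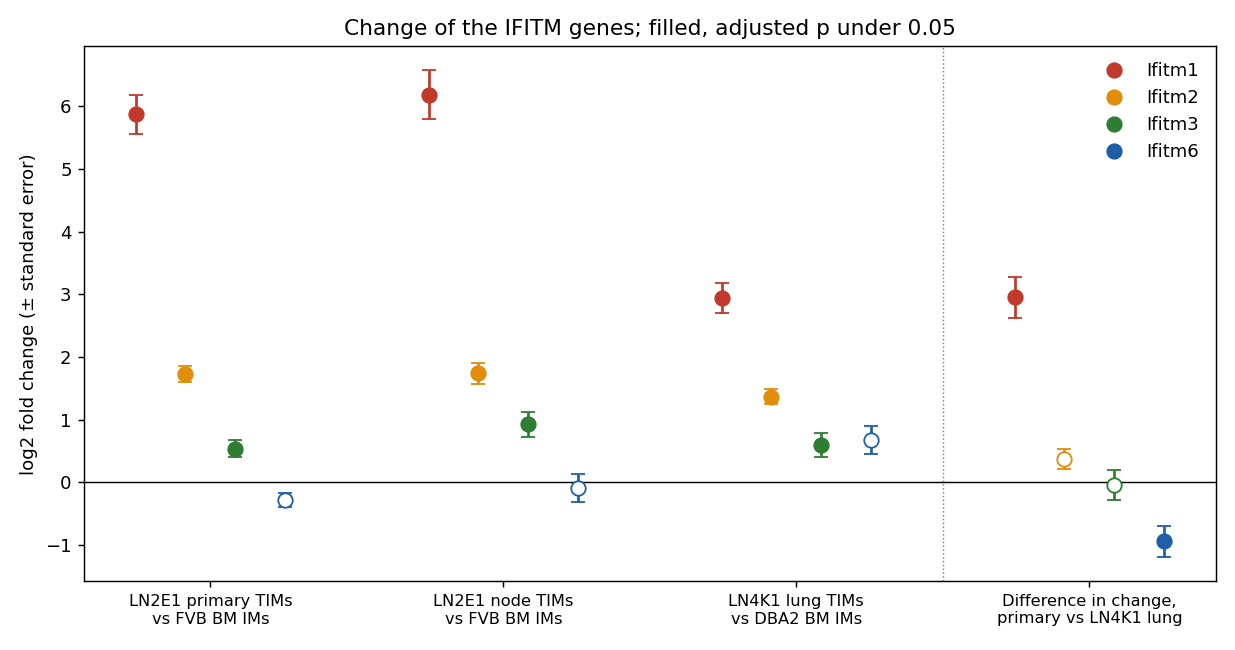
Log2 fold change of each IFITM gene in the 3 comparisons of TIMs with BM IMs of the same strain and, right of the dotted line, the difference between the changes in LN2E1 primary tumor TIMs and LN4K1 lung TIMs, with standard errors. Filled dots passed an adjusted p under 0.05, and the values for Ifitm1 run from 2.94 to 6.18 while those for Ifitm6 lie on both sides of 0.

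The change from marrow differed between the 2 tumor models for Ifitm1 and for Ifitm6. In a test of the difference itself (interaction term in edgeR over the 4 groups), the change of Ifitm1 was larger in primary tumor TIMs than in LN4K1 lung TIMs by 2.95 on the log2 scale (SE 0.33, adjusted p = 6.51e-05). The change of Ifitm6 was lower in primary tumor TIMs by -0.94 (SE 0.25, adjusted p = 0.0137). Both calls held in all 23 alternatives tried, which gave 2.78 to 3.27 for Ifitm1 and -1.04 to -0.75 for Ifitm6. Without LN4K1 lung replicate 3 the values were 3.04 and -0.75. For Ifitm2 the difference was 0.38 (SE 0.16, adjusted p = 0.0955) and for Ifitm3 -0.04 (SE 0.24, adjusted p = 0.954), neither past the threshold, while 26.5% of the 15182 genes tested passed. Strain, cell line, route and tissue differ together in this contrast and cannot be told apart.

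Between lymph node and primary tumor TIMs of the LN2E1 model, none of the 4 members passed the test, and 11.7% of 13488 genes did. The log2 difference was 0.30 (SE 0.22, adjusted p = 0.439) for Ifitm1, -0.00 (SE 0.12, adjusted p = 0.991) for Ifitm2 and 0.18 (SE 0.17, adjusted p = 0.548) for Ifitm6. Ifitm3 came nearest, with 0.39 (SE 0.12, adjusted p = 0.0646), and it passed in 3 of 18 alternatives, with adjusted p between 0.0136 and 0.176, among them the fit without lymph node TIM replicate 4 (0.47, adjusted p = 0.0136). Its lymph node libraries between 2540 and 4316 CPM overlapped the primary tumor libraries between 2403 and 2760 CPM. Of 6 fibroblast markers 5 were lower in lymph node than in primary tumor TIMs, and their part in these values was not tested.

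Between the marrow of the 2 strains, 1 of the 4 members passed. This was Ifitm2, higher in DBA2 than in FVB BM IMs with a log2 difference of 0.46 (SE 0.12, adjusted p = 0.0342) by edgeR, against 21.1% of 12905 genes. This call held in 8 of 14 alternatives, with adjusted p between 0.000926 and 0.133, and was lost on leaving out FVB BM IM replicate 1 or 2 or any DBA2 BM IM replicate. The differences were -0.52 (SE 0.29, adjusted p = 0.234) for Ifitm1, 0.21 (SE 0.16, adjusted p = 0.374) for Ifitm3 and 0.01 (SE 0.13, adjusted p = 0.952) for Ifitm6. Basophil and mast cell markers summed to 236 to 288 CPM in FVB BM IMs and 13.5 to 28.2 CPM in DBA2 BM IMs, and their part in these values was not tested.

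Levels of the 4 genes were compared with each other per kilobase of joined exons (CPM per kb). The family summed to 3511 ± 626 CPM per kb in FVB BM IMs (SD, n = 3) and 4044 ± 185 in DBA2 BM IMs (SD, n = 3). In TIMs the sum was 6244 ± 382 in primary tumors, 7477 ± 1411 in lymph nodes and 7234 ± 1587 in LN4K1 lungs (SD, n = 5 each), and no TIM library overlapped a marrow library. Ifitm3 supplied the largest share of these levels in every group.

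In marrow the order per kb was Ifitm3, Ifitm2, Ifitm6 and Ifitm1 in both strains. Ifitm3 made up 74.5 ± 5.21% of the family sum in FVB BM IMs and 74.0 ± 1.14% in DBA2 BM IMs, and 61.8 ± 1.83%, 66.7 ± 1.43% and 65.1 ± 2.66% in primary tumor, lymph node and LN4K1 lung TIMs. The share of Ifitm2 was 15.2 ± 4.97% and 17.3 ± 1.53% in the marrow of FVB and DBA2 mice and 27.7 ± 1.58%, 23.0 ± 1.73% and 26.5 ± 3.03% in the same 3 TIM groups. Ifitm6 supplied 10.0 ± 0.405% in FVB BM IMs and 4.66 ± 0.243% in primary tumor TIMs, 4.35 ± 0.650% in lymph node TIMs, 8.60 ± 0.873% in DBA2 BM IMs and 7.96 ± 0.774% in LN4K1 lung TIMs (all SD). Ifitm1 supplied 0.179 ± 0.0593% and 0.107 ± 0.0262% in marrow, 5.91 ± 1.21% in primary tumor TIMs, 5.91 ± 0.887% in lymph node TIMs and 0.479 ± 0.0751% in LN4K1 lung TIMs. In the LN2E1 model the mean share of Ifitm1 thus lay above that of Ifitm6, while in LN4K1 lung TIMs Ifitm6 remained well above Ifitm1. Primary tumor replicate 5 and lymph node replicate 3 had the larger share for Ifitm6. The gap depends on the gene length used. Per kb of the longest transcript, Ifitm1 averaged 458 and Ifitm6 324 CPM in primary tumor TIMs, and 558 and 365 CPM in lymph node TIMs. These shares are descriptions without a test.

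**Figure D3:**
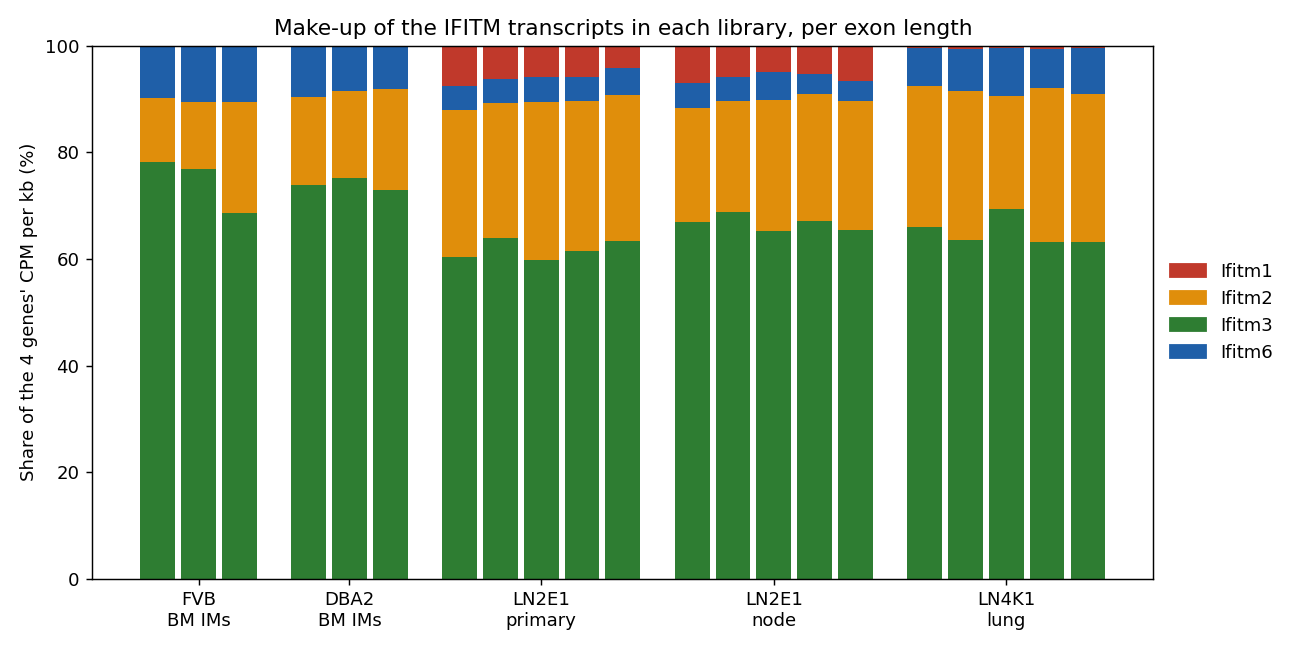
Share of each IFITM gene in the summed CPM per kb of the 4 genes, with a stacked bar for each library. Ifitm1 is hardly visible in the marrow bars (0.0851% to 0.245%) and in the LN4K1 lung bars (0.402% to 0.595%), and takes 4.15% to 7.52% of the LN2E1 bars.

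Genes of the interferon pathway were read from the same fits, beginning with the signals. Among 4 ligands (Ifnb1, Ifna2, Ifna4 and Ifng), no library exceeded 0.365 CPM, and Ifna4 had no counts in any library. Interferon made by other cells of the tissue is not visible in sorted monocytes. Of 12 receptor and signal transducer genes, 11 rose and 0 fell in primary tumor TIMs and 10 rose and 0 fell in lymph node TIMs. In LN4K1 lung TIMs 4 rose and 1 fell. The medians were 1.29, 1.36 and 0.33 on the log2 scale. Of all genes tested, 33.3%, 20.2% and 13.9% were higher and 28.6%, 17.2% and 11% lower in the same order. Irf1, an interferon-gamma target that drives further genes, rose by 2.87 (SE 0.20), 3.60 (SE 0.21) and 1.86 (SE 0.16) in the 3 comparisons. Irf7, the amplifier of type I interferon, rose by 2.85 (SE 0.15) and 3.57 (SE 0.20) in the LN2E1 tissues and had a value of 0.53 (SE 0.26, adjusted p = 0.171) by edgeR in LN4K1 lung TIMs. Jak2, a kinase of the interferon-gamma receptor, rose by 1.25 (SE 0.19), 1.42 (SE 0.26) and 1.06 (SE 0.27) in the 3 comparisons. Ifnar2, a type I receptor chain, fell by 0.41 (SE 0.11) in LN4K1 lung TIMs. The LN4K1 count of 4 was 2 without DBA2 BM IM replicate 1 or 3, and the fall of Ifnar2 was lost without DBA2 BM IM replicate 1, 2 or 3 or LN4K1 lung TIM replicate 2, 4 or 5.

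The antiviral interferon-stimulated genes rose together in the LN2E1 model. All 20 listed genes rose in primary tumor TIMs (median 3.17 on the log2 scale) and all 20 rose in lymph node TIMs (median 3.76), where the medians of all genes tested were 0.08 and -0.04. Ifitm1 exceeded each list median in the same fits, whereas Ifitm2, Ifitm3 and Ifitm6 lay below it. In LN4K1 lung TIMs 6 of the 20 rose and 2 fell, beside 13.9% of all genes higher and 11% lower. The list median was 0.48 against 0.03 over all genes. Isg15, a ubiquitin-like protein, rose by 1.65 (SE 0.31) and Rtp4 by 1.63 (SE 0.24), whereas Cmpk2, a mitochondrial nucleotide kinase, fell by 0.83 (SE 0.15). The dynamin-like GTPase Mx1 fell by 0.72 (SE 0.23), close to the threshold with an adjusted p of 0.0491 by edgeR. With the replicate number as a block, 3 of the 20 rose and 0 fell. Without LN4K1 lung replicate 3, 7 of the 20 rose and 3 fell, and with any other 1 library of this comparison left out 6 to 8 rose and 1 fell.

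The 8 interferon-gamma-induced genes rose in all 3 comparisons, with 8 of 8 higher and medians of 4.49, 4.82 and 3.01. The chemokine Cxcl9, a hallmark of interferon-gamma, rose by 7.37 (SE 0.38), 7.29 (SE 0.37) and 5.67 (SE 0.53). Ciita, the regulator of MHC class II genes, rose by 4.62 (SE 0.40), 4.16 (SE 0.38) and 3.72 (SE 0.39). Cxcl10 rose by 6.03 (SE 0.26), 6.40 (SE 0.27) and 3.07 (SE 0.29) in the same order. In LN4K1 lung TIMs the value of Ifitm1, 2.94, lay near the median of this list and above that of every antiviral gene. The difference in change between the models passed for 18 of the 20 antiviral genes and for 7 of the 8 interferon-gamma-induced genes. Each of these had the larger change in primary tumor TIMs. The list medians were 2.37 and 1.57, while 26.5% of all genes passed in either direction.

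Marrow without tumor already differed between strains in the antiviral genes. Of the 20, 19 were higher in DBA2 than in FVB BM IMs and 0 lower, with a median of 1.79, and Oas3, a sensor of double-stranded RNA, measured 0.765 CPM in FVB and 19.2 CPM in DBA2 marrow on average. Of the interferon-gamma-induced genes 4 of 8 were higher in DBA2 marrow, with a median of 0.67, while 21.1% of all genes passed in either direction. That count was 1 without FVB BM IM replicate 2 or DBA2 BM IM replicate 2, 2 without DBA2 BM IM replicate 1 or 3 and 6 without FVB BM IM replicate 3. The IFITM genes, given above for the same libraries, had values between -0.52 and 0.46. In lymph node against primary tumor TIMs, 8 antiviral genes and 4 interferon-gamma-induced genes rose and 0 fell, with medians of 0.59 and 0.47, while 11.7% of all genes passed in either direction. The antiviral count was 5 without primary tumor TIM replicate 1, 4 or 5, 13 without primary tumor TIM replicate 2, 12 without lymph node TIM replicate 3 and 13 in DESeq2, which called 5 interferon-gamma-induced genes higher and 1 lower.

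**Figure D4:**
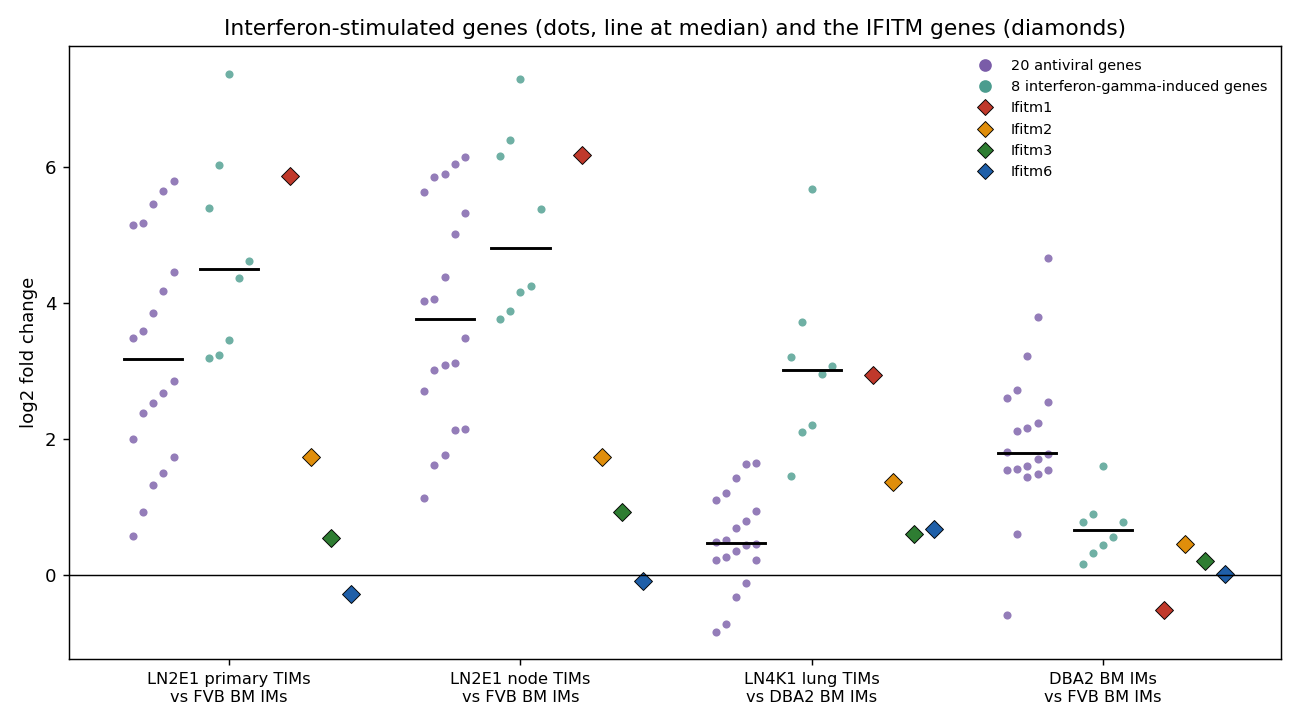
Log2 fold change of 20 antiviral interferon-stimulated genes, 8 interferon-gamma-induced genes (dots, with the median as a line) and the 4 IFITM genes (diamonds) in 4 comparisons. In DBA2 against FVB marrow the antiviral median is 1.79 and the Ifitm1 value -0.52, and in LN4K1 lung TIMs the antiviral median is 0.48 and the Ifitm1 value 2.94.

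Of 7 genes whose products modify or bind IFITM3, 3 were higher and 1 lower in primary tumor TIMs, where 33.3% of all genes were higher and 28.6% lower. In lymph node TIMs 1 of the 7 was higher, against 20.2% of all genes, and in LN4K1 lung TIMs 2 were higher, against 13.9%, and nothing particular to this short list is read from these counts. The LN4K1 count was 0 with library totals in place of TMM factors and with the replicate number as a block. It was also 0 without DBA2 BM IM replicate 2 or 3 or LN4K1 lung TIM replicate 4 or 5. With all 5 groups in 1 fit, and without DBA2 BM IM replicate 1 or LN4K1 lung TIM replicate 1 or 2, it was 1. Fyn, a kinase that phosphorylates IFITM3, averaged 29.0, 249 and 408 CPM in FVB BM IMs, primary tumor TIMs and lymph node TIMs, and 16.2 and 41.7 CPM in DBA2 BM IMs and LN4K1 lung TIMs. It rose by 3.08 (SE 0.14), 3.82 (SE 0.20) and 1.31 (SE 0.38) on the log2 scale, the last with an adjusted p of 0.0333 by edgeR. That last call was lost in the fits with a count of 0. Nedd4, the ubiquitin ligase that targets IFITM3 for turnover and a gene outside the rule for named genes, was named after its values were seen. Nedd4 rose by 3.67 (SE 0.55) in primary tumor TIMs and by 1.34 (SE 0.38) in LN4K1 lung TIMs, where its call was also lost in the fits with a count of 0. It measured 5.27 and 5.16 CPM on average in FVB marrow and lymph node TIMs. Its primary tumor libraries, at 27.1 to 106 CPM, were also those with fibroblast marker sums of 367 to 1110 CPM, and the part of these cells in its level was not tested. Zmpste24, a protease partner of IFITM3, rose by 0.45 (SE 0.10) and Vapa fell by 0.41 (SE 0.09) in primary tumor TIMs. The palmitoyltransferase Zdhhc20, which lipidates IFITM3, did not pass in any comparison of TIMs with marrow.

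Other IFITM genes were scarce. Ifitm5, known from bone, reached at most 8.33 CPM, Ifitm7 at most 0.937 CPM and Ifitm10 at most 0.371 CPM in any library. Ifitm5 rose by 2.23 (SE 0.32, adjusted p = 0.000248) by edgeR in primary tumor TIMs, from 0.584 to 2.78 CPM on average, and no other change of the 3 passed in a comparison of TIMs with marrow.

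The genes on either side of the cluster were called in both directions, and their counts stand beside the shares of all genes. Within 100000 bases of the outermost members the annotation lists 18 other genes, of which 12 were matched in the count table. In primary tumor TIMs 4 of the 9 neighbours tested were higher and 4 lower, beside 33.3% and 28.6% of all genes. In lymph node TIMs 1 of 8 was higher and 2 lower, beside 20.2% and 17.2%, and in LN4K1 lung TIMs 0 of 8 were higher and 1 lower, beside 13.9% and 11%. Sigirr, an inhibitory receptor of the IL-1 family, fell in all 3 comparisons, by 0.71, 0.90 and 0.60 on the log2 scale (adjusted p = 0.000469, 0.00465 and 0.0266 by edgeR). Sirt3, a mitochondrial deacetylase, fell by 0.69 in primary tumor TIMs and by 0.80 in lymph node TIMs (adjusted p = 0.000789 and 0.0273 by edgeR). The proteasome gene Psmd13 fell by 0.41 in primary tumor TIMs and was not past the threshold in the other 2 comparisons with marrow. B4galnt4, with a mean of 1.11 CPM over all libraries, had -1.17 in primary tumor TIMs (adjusted p = 0.03015 by edgeR). Its values of -3.62 in lymph node and -2.50 in LN4K1 lung TIMs did not pass. Among the rises, Pgghg was higher by 0.52 in primary tumor and 0.83 in lymph node TIMs (adjusted p = 0.0118 and 0.0321 by edgeR). Ric8a rose by 0.35 in primary tumor TIMs (adjusted p = 0.0108 by edgeR). The other neighbours higher there were Ifitm5 and Nlrp6, the latter with a mean of 0.0679 CPM over all libraries. The neighbours named here were chosen after their values were seen.

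**Figure D5:**
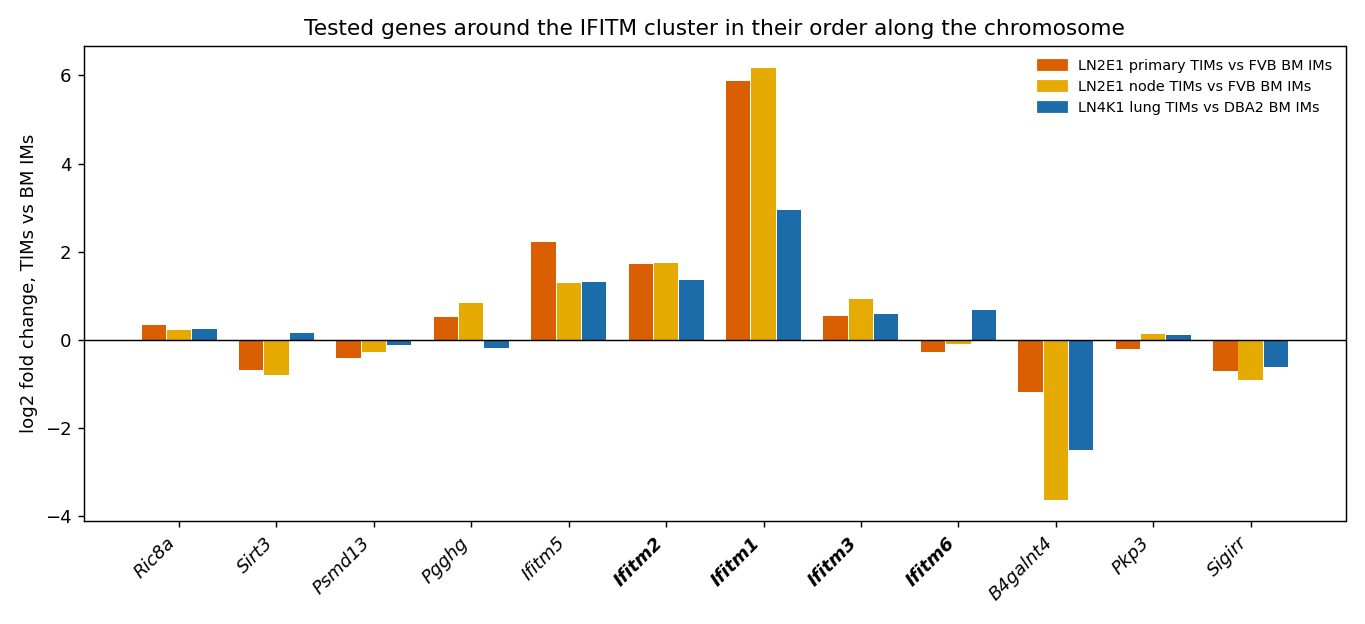
Log2 fold change of TIMs against BM IMs of the same strain for the tested genes around the cluster, in their order along the chromosome and not to scale, with the IFITM members in bold and Nlrp6, which had a mean of 0.0679 CPM over all libraries, left out. The bars of Ifitm1 reach 5.87, 6.18 and 2.94, and those of B4galnt4, with a mean of 1.11 CPM over all libraries, reach -1.17, -3.62 and -2.50. Ric8a, Psmd13 and Pkp3 stay within 0.41 of 0.

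The genes most like each member were sought by the root mean square difference between centered log2 CPM profiles over the 21 libraries, in the 8012 genes whose log2 CPM averaged above 3. For Ifitm1 these were Il18bp (0.66), Agpat9 (0.72) and Serpina3f (0.73). Il18bp, which encodes the secreted inhibitor of IL-18, averaged 2.11 and 0.888 CPM in FVB and DBA2 marrow, 68.6 and 105 CPM in primary tumor and lymph node TIMs and 19.2 CPM in LN4K1 lung TIMs. The other members were far less like Ifitm1, with differences of 2.21 for Ifitm2, 2.49 for Ifitm3 and 2.89 for Ifitm6. For Ifitm2 the nearest genes were Clec4a1 (0.22), the cell cycle inhibitor Cdkn1a (0.23) and Btg1 (0.24), for Ifitm3 the copper chaperone Atox1 (0.11), the proteasome activator subunit Psme1 (0.13) and Fam96b (0.14), and for Ifitm6 Hcst (0.15), Ndufa7 (0.16) and Lst1 (0.16). Ifitm3 and Ifitm6 differed from each other by 0.44, less than any other pair of members. All profiles share their libraries and scaling factors, and the values are descriptions.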

How the data were processed

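RNA of sorted CD45+ CD11b+ Ly6C-high Ly6G- cells was sequenced from 21 libraries with a low-input, non-stranded kit. The deposited values are raw gene counts: the authors trimmed reads with BBDuk, aligned them to mm10 with BBMap and counted them with featureCounts 1.5.2, using SAMtools 1.8. The count table held 23420 symbols, 3910 of them with no count in any library, and 0 columns were left out. Without strand, overlapping genes on opposite strands cannot be told apart. Groups were taken from the sample labels.

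Each comparison was fitted on its own groups across all genes that passed edgeR's expression filter (minimum count 10, minimum total 15), with edgeR 4.0.16 in R 4.3.3 (TMM, robust quasi-likelihood test, two-sided, Benjamini-Hochberg adjustment). Standard errors are the log2 fold change divided by the square root of F and are approximate. Log2 CPM used a prior count of 2. The test was checked on simulated counts. DESeq2 1.42.0, other scalings, filters and designs, and fits without each library were run as alternatives. Promoters are from RefSeq and gene models from GENCODE vM21.

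The members and gene lists were chosen with earlier results of these data known. Named genes are all 4 members, up to 2 of the largest rises and falls per list among genes past an adjusted p of 0.05 with a mean log2 CPM above 3, and the 3 genes most like each member. Other named genes are the locus neighbours, the remaining IFITM genes, Nedd4, and Irf7 in the comparison where it did not pass. Jak2, Ciita and Cxcl10 are also given where they were not among the 2 largest rises.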

Additional observations from a re-analysis of the deposited data

Results flagged for a closer look

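LN4K1 lung TIM replicate 3 had an Ifitm3 level of 4690 CPM, against 2549 to 3017 CPM in the other LN4K1 lung libraries. The gap to the next library was 0.782 of the group's range, above Dixon's critical value of 0.71 for 5 samples. Of 12 gene and group combinations with 5 samples this was the only one past the limit, and chance gives about 1 in 20. The same library had the highest Ifitm6 level, 803 CPM, and the highest sum of classical monocyte markers, 128018 CPM, most of it Lyz2 at 115486 CPM. The part of these genes in its Ifitm3 level was not tested.

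The change from marrow differed between the models for 2 members in the test of the difference by edgeR. For Ifitm1 the change was larger by 2.95 on the log2 scale in primary tumor TIMs (adjusted p = 6.51e-05), with every LN2E1 primary tumor library above every LN4K1 lung library. For Ifitm6 the difference was -0.94 (adjusted p = 0.0137), with primary tumor libraries at 232 to 297 CPM and LN4K1 lung libraries at 422 to 803 CPM. Strain, cell line, route and tissue cannot be told apart in either.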

How the results depend on the processing

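Ifitm1 and Ifitm2 kept their direction and an adjusted p under 0.05 in all 16 alternatives of each comparison of TIMs with marrow, and the differences in change of Ifitm1 and Ifitm6 in all 23. The causes of the changes below were not tested.

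With library totals in place of TMM factors, chosen after seeing the data, Ifitm6 passed in primary tumor TIMs (-0.46), 1 member was a DEG in lymph node TIMs, Ifitm3 no longer passed in LN4K1 lung TIMs (0.37), and its difference in change was 0.00. This scaling moved the share of calls that were higher from 54% to 36% in lymph node TIMs, from 55.8% to 35.6% in LN4K1 lung TIMs and from 52.5% to 32.2% between lymph node and primary tumor TIMs, and the medians of all genes from -0.04 to -0.33, from 0.03 to -0.19 and from -0.03 to -0.13. In primary tumor TIMs the median moved from 0.08 to -0.09. Ifitm6 passed in LN4K1 lung TIMs with DESeq2's size factors (0.69), with 10 counts required in every library (0.67), with all 5 groups in 1 fit (0.74) and in DESeq2 (0.69 unshrunken, 0.67 shrunken). Requiring only 1 count in total gave Ifitm3 0.60 there, no longer past the threshold, and Ifitm2 0.00 between lymph node and primary tumor TIMs. DESeq2 called 3074 genes between those tissues with either kind of fold change, against 1578, and passed Ifitm3 (0.36 unshrunken, 0.33 shrunken). It also passed Ifitm2 in the difference in change (0.42). The shrunken fit was not run for that difference. All 5 groups in 1 fit called 1595 genes between the strains, against 2719, with Ifitm2 no longer past the threshold (0.43) and Ifitm6 at -0.01.

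The replicate numbers did not pair the samples: correlations of same-numbered libraries ran from -0.52 to 0.422, and 8 of 36 were over 0.1. With the replicate number as a block, 5954 genes passed in primary tumor TIMs, 1324 in LN4K1 lung TIMs and 533 between lymph node and primary tumor TIMs, and 0 members were DEGs in any of the 3 comparisons with marrow. Under the block Ifitm3 was 0.60 in primary tumor TIMs and 0.63 in LN4K1 lung TIMs, neither past the threshold, and Ifitm6 was 0.14 in lymph node TIMs.

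Leaving out 1 library at a time gave ranges. Where an arm kept 2 libraries, the spread was shared across the fit. In primary tumor TIMs Ifitm6 ran from -0.39 to -0.17. In lymph node TIMs 1 to 2 members were DEGs and Ifitm6 ran from -0.22 to 0.04, above 0 only without replicate 4. In LN4K1 lung TIMs 2134 (without DBA2 BM IM replicate 3) to 5036 (without LN4K1 lung replicate 3) genes passed, 0 to 2 members were DEGs, Ifitm3 ran from 0.43 to 0.68 and Ifitm6 from 0.48 to 0.77. Between lymph node and primary tumor TIMs 889 (without primary tumor replicate 4) to 2256 (without lymph node replicate 1) genes passed, Ifitm2 ran from -0.07 to 0.08 and Ifitm3 from 0.28 to 0.47. Between strains 1115 (without FVB BM IM replicate 2) to 4828 (without FVB BM IM replicate 3) genes passed, Ifitm2 ran from 0.36 to 0.59 and Ifitm6 from -0.09 to 0.11. For the difference in change 2734 to 4708 genes passed, Ifitm2 ran from 0.29 to 0.52, past the threshold only without FVB BM IM replicate 3, and Ifitm3 from -0.20 to 0.12.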
